A study of Mus musculus with 2 samples.

Results

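The IgD-negative B lineage cells of the lymph node were B cells and antibody-producing cells in which no transcript of the IgD heavy chain was counted. They were chosen from the UMI counts (unique molecular identifiers, 1 per captured RNA molecule) of the lymph node library. Cells with over 200 detected genes and no more than 5% of their UMIs in mitochondrial genes were first kept, which left 11269 of 11617 lymph node cells. A cell was then a member if it held at least 3 UMIs of Cd79a and Cd79b together, which encode the signalling chains of the B cell receptor, and 0 UMIs of Ighd (the IgD heavy chain) and of Fcer2a (CD23, a marker of follicular B cells). Cells with any UMI of Cd3d, Cd3e, Cd3g or Siglech were left out, as were those with 5 or more UMIs of Krt8 and Krt18 or of Glycam1, Chst4 and Fut7, to remove T cells, plasmacytoid dendritic cells, epithelial cells and high endothelial cells. The rule found 1102 cells, 9.78% of the 11269 (95% exact Clopper-Pearson interval 9.24% to 10.3%), out of 24044 cells in the whole series. The same limits without those on Ighd and Fcer2a held 4467 B lineage cells, of which the 1102 were 24.7%. They were compared with the 927 B lineage cells that had UMIs of both Ighd and Fcer2a, called the IgD+CD23+ cells below.

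The study followed breast cancer cells that spread through high endothelial venules, the lymph node vessels by which lymphocytes enter. Described here are 2 of its droplet libraries, 1 of primary tumours and 1 of the paired lymph nodes, each pooled from the same 6 C57BL/6J mice. Endothelial cells sorted from metastatic lymph nodes, which the study also profiled, are not part of them. The mice carried EO771-HEVM3 tumours, grown from a derivative of the EO771 mouse mammary carcinoma line that the study had selected for spread through these venules, and its animal methods give female mice 5 to 6 weeks old. There was no library from mice without tumours, no label assigned cells to mice, and none named a sort of the cells. With 1 library per tissue no test was possible, so no p-value is given, the intervals cover counting error only, and every difference below describes these cells. The lymph node library held 122207852 UMIs with a median of 2630 per cell, and the IgD-negative cells held a median of 1794.5 UMIs and 845 genes. In the primary tumour library the rule found 2 of 9989 cells (0.0200%, 0.00242% to 0.0723%), so the description rests on the lymph node. The libraries shared 47 cell barcodes, 3 of them on IgD-negative cells.

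B cells that have not met antigen carry IgM and IgD. After activation some enter germinal centres, where they divide, mutate their antibody genes and exchange the IgM constant region for IgG, IgA or IgE. Others become plasmablasts and plasma cells, which shut down much of the B cell programme and enlarge the endoplasmic reticulum (ER) to secrete antibody, with the J chain linking IgM and IgA into polymers. Inside the IgD-negative cells, 4 overlapping groups were therefore counted by fixed limits. Cycling cells held at least 3 UMIs from at least 2 of 12 mitosis genes. Class-switched cells held at least 3 UMIs of Ighg1, Ighg2b, Ighg2c, Ighg3, Igha and Ighe together, and more than of Ighm. Jchain-high cells held at least 10 Jchain UMIs, and germinal centre gene cells at least 2 UMIs from at least 2 of 9 germinal centre genes, among them Bcl6, S1pr2, Mef2b, Gcsam, Rgs13, Mybl1, Nuggc and Neil1. The counts of these genes set the groups and are given as descriptions.

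Of the 1102 cells, 140 (12.7%) passed at least 1 of the 4 limits and 962 (87.3%) passed none. The 103 class-switched cells were 9.35% (7.69% to 11.2%), against 6 of 927 IgD+CD23+ cells (0.647%) and 3 of 2907 lymph node T cells (0.103%). The IgD+CD23+ cells were chosen for an Ighd UMI. Low shares of class-switched cells, and of the mostly switched Jchain-high cells, among them were thus in part set by the rule. The 77 Jchain-high cells were 6.99% (5.55% to 8.66%), against 4 IgD+CD23+ cells (0.431%) and 0 T cells. A floor of 3 T cells is a share of 0.103%, and the exact upper limit for 0 T cells is 0.127%. The shares of both groups were thus above those among T cells, which make no antibody. The 63 cycling cells were 5.72% (4.42% to 7.26%), against 9 IgD+CD23+ cells (0.971%) and 102 T cells (3.51%). The 60 germinal centre gene cells were 5.44% (4.18% to 6.95%), against 7 IgD+CD23+ cells (0.755%) and 32 T cells (1.10%). At matched depth, with each cell thinned to 1000 UMIs and 21 shallower IgD-negative cells left out, the shares were 6.92% class-switched, 4.16% Jchain-high, 2.03% cycling and 1.23% with germinal centre genes. The thinned shares of the IgD+CD23+ cells were 0.622%, 0.124%, 0.265% and 0.0595% in the same order, with 2 cells left out. For T cells, with 6 left out, they were 0, 0, 1.14% and 0.124%. At equal depth the intervals of the 4 shares were thus apart from those of the T cells except for cycling cells, at 1.28% to 3.06% against 0.784% to 1.59% of T cells.

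The 4 groups overlapped. Of the 77 Jchain-high cells, 72 (93.5%) were class-switched, and these 72 were 69.9% of the 103 class-switched cells. Jchain-high cells were split between 29 that were cycling (37.7%) and 48 that were not. Of the 60 germinal centre gene cells, 38 (63.3%) were class-switched, 30 were cycling and 16 were Jchain-high. A set of 10 cells passed all 4 limits, 42 were class-switched and Jchain-high only, 13 were class-switched with germinal centre genes only, 13 had germinal centre genes only and 12 were cycling only.

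**Figure D1:**
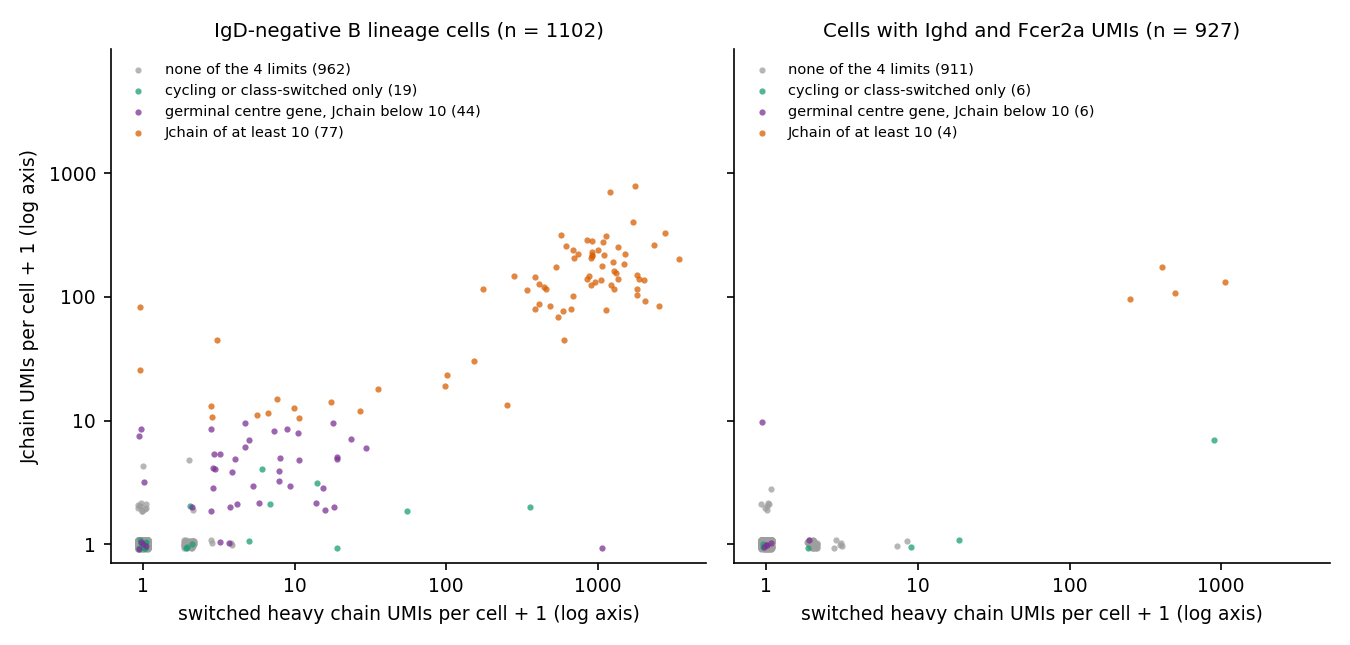
UMIs of switched heavy chains (x axis) and of Jchain (y axis) per cell, each with 1 added and on a log axis, in the 1102 IgD-negative cells (left) and the 927 IgD+CD23+ cells (right). Each point is a cell, shifted slightly at random so that equal values can be seen. Most Jchain-high cells lie at over 100 switched UMIs, germinal centre gene cells with fewer than 10 Jchain UMIs lie mainly at low values of both, and 4 IgD+CD23+ cells pass the Jchain limit.

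Depth differed by group. The 962 cells below all 4 limits held a median of 1718 UMIs, under the 1968 of the IgD+CD23+ cells and the 3178 of the T cells. The Jchain-high cells held a median of 11071 UMIs, the class-switched cells 9628, the cycling cells 13229 and the germinal centre gene cells 6496. The 140 cells in any of these groups gave 47.5% of all UMIs of the IgD-negative cells. Among B lineage cells with fewer than 1500 UMIs, 29.1% were IgD-negative and below all 4 limits, and this share was 23.7%, 18.7%, 11.1% and 5.50% in the ranges that start at 1500, 2000, 3000 and 5000 UMIs. The share in at least 1 of the groups was 0, 0.211%, 0.185%, 5.53% and 51.4% over the same ranges. The 4 limits are UMI counts that were not scaled to depth, and the part of depth in this second share was not tested. Among B lineage cells below all 4 limits, the 962 made up 29.2%, 23.9%, 18.8%, 12.3% and, of only 68 such cells in the deepest range, 17.6% (9.47% to 28.8%). The median IgD+CD23+ cell itself held 2 Ighd UMIs and 1 Fcer2a UMI. How far missed transcripts make up the 962 cells was not tested.

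**Figure D2:**
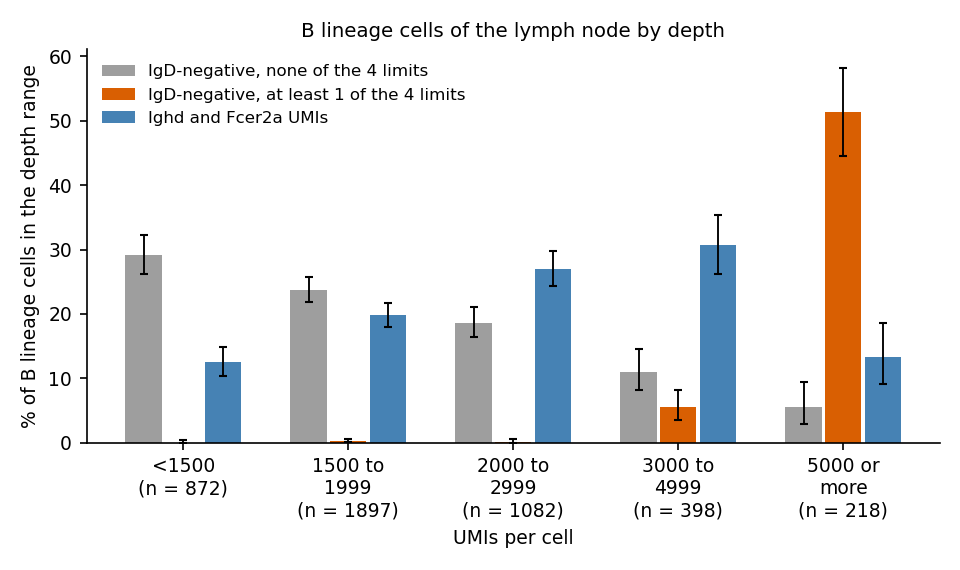
Share of lymph node B lineage cells (y axis, percent) in 5 ranges of UMIs per cell (x axis, with the number of B lineage cells), for IgD-negative cells below all 4 limits, IgD-negative cells past at least 1 limit and IgD+CD23+ cells. Bars start at 0, and lines are 95% exact Clopper-Pearson intervals. The first group goes from 29.1% to 5.50% of all B lineage cells and the second reaches 51.4% of the deepest ones. The limits of the second group are UMI counts that were not scaled to depth.

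Just inside the rule, 76 cells held 3 UMIs of Cd79a and Cd79b together and 117 held 4, and 63 cells with 2 such UMIs lay just outside it. Another 1154 cells were outside by a single UMI, 924 of Ighd and 230 of Fcer2a, and 25 of them passed at least 1 of the 4 limits. The median of Cd79a and Cd79b together was 8 UMIs in the IgD-negative and 9 in the IgD+CD23+ cells. For Jchain, 12 cells held 5 to 9 UMIs, 12 held 10 to 19, and 969 held 0. The 12 T cell markers summed to 73.6 CPM (UMIs per 1000000 of the group's summed UMIs) against 5223 CPM in T cells, with Cd3d, Cd3e and Cd3g at 0 by the rule. In the Jchain-high cells they summed to 122 CPM from 111 UMIs, against 52.9 CPM in the IgD+CD23+ cells, and 94 of the 111 UMIs were of Cd28, a receptor that plasma cells are also known to carry, at 103 against 10.1 CPM (log2 ratio 3.32). Cd4 and Cd8a were at 0 there, and none of the 77 cells held 3 of the 12 genes. Of the plasmacytoid dendritic cell markers, Siglech was at 0 by the rule, and Klk1 and Cox6a2 were at 0 as well. The 6 markers together were at 462 CPM, against 301 CPM in the IgD+CD23+ cells and 171 CPM in T cells. They were at 434 CPM in the Jchain-high cells and at 808 CPM in the cycling cells, where 167 of 838 UMIs were in 1 cell. The 8 dendritic cell markers summed to 383 CPM with Xcr1 at 0, against 409 CPM in the IgD+CD23+ cells and 202 CPM in T cells. In the Jchain-high cells they summed to 540 CPM, with Xcr1, Cd209a and Clec9a at 0, and 5 of the 77 cells (6.49%) held 3 or more of these genes, against 0.324% of the IgD+CD23+ cells. The lists of NK, myeloid, stromal, epithelial and erythroid markers summed to between 9.45 and 97.7 CPM. The 8 endothelial markers summed to 156 CPM, with 365 of their 545 UMIs in the 63 cycling cells and 20 in the 77 Jchain-high cells. Cycling and germinal centre gene cells are therefore described below for the 58 of each with no more than 6000 detected genes, which leaves out 5 cells and brings the endothelial UMIs of the cycling cells to 86, 42 of them in 1 cell, and their plasmacytoid dendritic cell markers to 435 CPM. This limit, like the later split of Jchain-high cells by cycling, was chosen after the data were seen. The part of other cell types in any value was not tested.

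Antibody genes carried much of the RNA of the Jchain-high cells. Immunoglobulin genes made up 33.2% of their UMIs, with a median of 36.0% per cell and a highest value of 75.4%, against 1.88% in the IgD+CD23+ cells and 1.02% in the 962 cells. Jchain (chr5:88519809-88527891, GRCm38, minus strand) was counted at a median of 130 UMIs in the Jchain-high cells, from 10 to 791. It had a UMI in 1.35% of the 962 cells, 1.27% of T cells and 0.768% of the IgD+CD23+ cells below all 4 limits. These groups differed in depth, and the limits leave out cells with 10 or more Jchain UMIs. Whether that low share is background was not tested. Igkc, the kappa light chain, had a median of 2845 UMIs in the Jchain-high cells, 11 in the 962 cells and 15 in the IgD+CD23+ cells below all 4 limits. An Igkc UMI was also found in 18.1% of T cells. Ighm, the IgM heavy chain, had a UMI in 88.3% of the 962 cells and in 22.1% of the Jchain-high cells, against 21.4% of T cells, whose median depths were 11071 and 3178 UMIs. The 962 cells were thus mostly IgM-transcribing. Only 5 Jchain-high cells were not class-switched, and in these the median was 421 Ighm UMIs and 26 Jchain UMIs.

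Among the 103 class-switched cells, IgG1 and IgG2b led. Ighg1 (chr12:113325240-113330523) was the most counted switched constant gene in 42 cells (40.8%), Ighg2b (chr12:113302965-113307933) in 38 (36.9%), Ighg2c (chr12:113285325-113288932) in 15 (14.6%), Ighg3 (chr12:113356224-113361232) in 6 (5.83%) and Igha (chr12:113254830-113260236) in 2 (1.94%), with Ighe in none. All lie on the minus strand of the heavy chain locus. By UMIs the order differed, since Ighg2b held 51.3% of the switched UMIs, Ighg1 22.6%, Ighg2c 19.9%, Igha 4.40% and Ighg3 1.84%. The median Ighg2b cell held 959 UMIs of its isotype and the median Ighg1 cell 133. Of the Ighg1 cells 26 were Jchain-high and 21 carried germinal centre genes, and of the Ighg2b cells 27 and 11. Of the 15 Ighg2c cells, 14 were Jchain-high. Most cells held a single isotype, with at least 90% of switched UMIs in 1 gene in 94 of 103 cells and at least 99% in 83. Ighm was at 0 in 83 cells. The IgG genes are alike in sequence, and of the 31-base words of the Ighg2c transcripts 14.4% also occur in Ighg2b, so reads from these genes could in part be assigned to the wrong one.

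**Figure D3:**
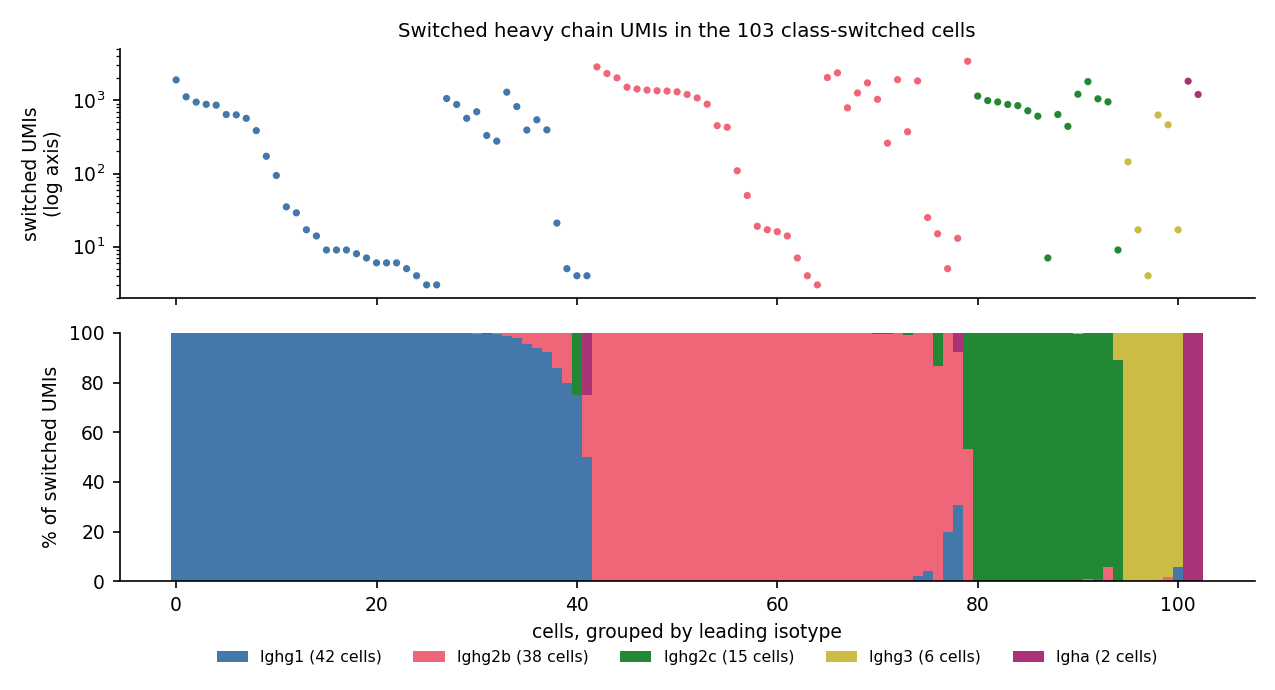
The 103 class-switched cells, 1 position each on the x axis, grouped by leading isotype. The upper panel gives their switched heavy chain UMIs on a log axis and the lower panel the percent of those UMIs by isotype. In 94 of 103 cells 1 isotype holds at least 90% of these UMIs, the cell with most UMIs is split between Ighg2b (1826) and Ighg2c (1602), and within the Ighg1 and Ighg2b cells the counts run from 3 UMIs to over 1000.

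Over all 1102 cells, 254 of 5490 genes with enough counts (at least 20 UMIs in both groups together and 20 CPM in 1) were at least 2-fold higher than in the IgD+CD23+ cells, and 62 were at least 2-fold lower. That is a background of 4.63% higher and 1.13% lower, with a median log2 ratio over all these genes of −0.13. These counts changed with the cells behind them, to 47 and 24 with the mean of single-cell CPM and to 431 and 435 among cells with at least 2000 UMIs. Of the plasma cell list of 16 genes, 13 had enough counts and 9 were at least 2-fold higher. Of the 16 genes of ER folding 10 were higher, and of the 12 naive follicular genes 10 had enough counts and 2 were lower. The genes with the highest ratios were Slpi, a secreted protease inhibitor (log2 ratio 5.13), Ighg2b (4.53), Jchain (3.86), Derl3 of ER-associated degradation (3.64), Cacna1s (3.47), Iglc1 (3.19), Ly6c2 (3.02), Basp1 (2.99), Ighg1 (2.76), Tmem176a (2.63), Kcnn4 (2.61) and Creld2 (2.56). Each of these had a UMI in fewer than 20% of the 1102 cells. Single comparator cells weighed on this order, since 900 of the 1001 Ighg2b UMIs and 1054 of the 1498 Ighg1 UMIs of the IgD+CD23+ cells were in 1 cell each. Without the comparator cell with most UMIs of the gene the ratios were 7.82 for Ighg2b, 6.02 for Slpi, 4.50 for Ighg1 and 4.39 for Jchain. Among the lowest ratios were those of the heat shock gene Hspa1a (−2.12), B3gnt7 (−1.39), Chst10 (−1.34), Trim7 (−1.33), Themis2 (−1.30), Gadd45g (−1.29), Btla (−1.28), Trim12c (−1.27), Tspan32 (−1.26), Gimap7 (−1.24) and Dpp4 (−1.22). For Gadd45g 43 of 121 comparator UMIs were in 1 cell, and without that cell its ratio was −0.67, inside 2-fold. Without the 16 IgD+CD23+ cells that themselves passed a limit, a comparison chosen after the data were seen, 399 genes were higher and 106 lower.

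The 962 cells below all 4 limits lay close to the IgD+CD23+ cells. In them, over the 911 IgD+CD23+ cells that also passed no limit, 20 of 5262 genes (0.38%) were at least 2-fold higher and 20 (0.38%) lower, with a median log2 ratio of −0.01. Over all 927 IgD+CD23+ cells the shares were 0.187% and 1.23% of 5350 genes. There 5 of 5 counted mitosis genes and 3 of 3 counted switched heavy chains were at least 2-fold lower. Over the 911 cells no more than 1 gene was past 2-fold in each list other than those of other cell types. None of the switched heavy chains had enough counts in that comparison. Cells past a limit were left out on both sides there, so likeness in mitosis, switched, germinal centre and Jchain counts was largely set by the limits. The myeloid list was at 42.0 against 1218 CPM, with 1826 of the comparator's 2497 UMIs in 1 cell and all 3 of its counted genes lower. The NK list was at 45.9 against 4.39 CPM, with 78 of 84 UMIs in 1 cell and its 1 counted gene, Gzma, higher, and of 2 counted dendritic cell genes Fscn1 was higher at 22.9 against 4.39 CPM, with 24 of 42 UMIs in 1 cell. The plasma cell list summed to 708 CPM against 681, the MHC class II list to 33485 against 33829, and the B cell identity list to 5066 against 5320 CPM. Ms4a1, which encodes CD20, was at 774 against 815 CPM and the B lineage factor Ebf1 at 1326 against 1290 CPM. Among naive follicular genes, Klf2, a factor that controls lymphocyte egress, was at 409 against 598 CPM (log2 ratio −0.55, interval −0.68 to −0.41). Ccr7, which guides cells into the T cell zone, was at 726 against 700 CPM. It was the only 1 of the 10 counted naive follicular genes above 0, at a list median of −0.15. Of MHC class II genes 1 of 10 lay above 0 (median −0.12), and of B cell identity genes 3 of 16 (median −0.14). Over all 927 IgD+CD23+ cells these counts were 3, 5 and 5 in the same order. All 7 counted genes of the B-1 and marginal zone list lay above 0, with a median log2 ratio of 0.15, the highest being Cd9 at 25.1 against 13.7 CPM. Over all 927 IgD+CD23+ cells 3 of these 7 lay above 0, with a median of −0.17. The genes furthest apart by the fixed rule included the secreted glycoprotein gene Creg1 (1.02), Pacsin2 (1.02) and Emb (1.01) on the higher side, and Gadd45g (−1.33), Mettl1 (−1.12) and Trim12c (−1.08) on the lower. Gadd45g was at −0.69 once the comparator cell with most of its UMIs was left out. Without the cell of the 962 with most UMIs of the gene, Creg1 was at 0.94, Pacsin2 at 0.96 and Emb at 0.84, all inside 2-fold.

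The groups past a limit overlap and share the 927 IgD+CD23+ cells as comparator, so their ratios are not independent of each other. Over the 140 cells together, 14.3% of 5840 genes were at least 2-fold higher and 21.9% lower. With CPM over the UMIs of non-immunoglobulin genes the balance turned, to 19.1% higher and 15.2% lower. In the Jchain-high cells, of 5511 genes, 10.1% were at least 2-fold higher and 41.7% lower, with a median log2 ratio of −0.79. Since immunoglobulin takes up so much of their total, CPM over the other genes alone moves every ratio up by 0.56, and the median then was −0.25. Of genes past 2-fold, 19.4% were higher on the first scale and 41.8% on the second. In the plasma cell list 14 of 16 genes were higher, with a median of 3.04, and none was lower. The list summed to 20030 CPM against 1119, and to 7348 against 887 CPM without Jchain, which sets the group. Xbp1, the factor that drives the secretory programme, was at 935 against 52.0 CPM (log2 ratio 4.16, interval 3.89 to 4.46), with a UMI in 94.8% of the cells and a median of 10 UMIs. Its share was 6.44% in the 962 cells and 20.8% in T cells. Of the 118 Xbp1 UMIs of the comparator, 62 were in the IgD+CD23+ cells below all 4 limits. Derl3 was at 353 against 7.49 CPM, Creld2 at 994 against 48.5 CPM and Edem1, also of ER-associated degradation, at 728 against 44.1 CPM. Sdc1, the plasma cell surface proteoglycan CD138, was at 108 against 19.4 CPM and found in 54.5% of the cells. Tnfrsf17, the survival receptor BCMA, was at 47.1 against 4.41 CPM, and Prdm1, which encodes the repressor Blimp-1, at 25.2 against 7.49 CPM. Ell2, an elongation factor of antibody transcripts, had a ratio of 0.93, and Irf4 one of −0.89 on the first scale. Mzb1, an ER chaperone of antibody assembly and 1 of the markers of these cells, had 1 UMI in each of 21 of the 77 cells (27.3%, 2.33% at 1000 UMIs), was at 23.0 CPM, and was at 0 in T cells.

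The ER folding list followed the plasma cell list, with 14 of 16 genes higher and a median of 2.39, summing to 25316 against 3845 CPM. The ER chaperone Hsp90b1 (GRP94) was at 9186 against 785 CPM, Hspa5 (BiP) at 2931 against 647 CPM, Pdia4, a disulfide isomerase, at 916 against 63.5 CPM, Manf at 2219 against 202 CPM and Sdf2l1 at 617 against 34.4 CPM. The chaperone Canx was at 184 against 162 CPM, the lowest ratio of the list except that of Ddit3. Genes of this programme are known to carry the ER stress response element, a pair of short motifs bound by NF-Y with ATF6 or XBP1, or the unfolded protein response element bound by XBP1. Promoter windows of 300 bases from RefSeq (GRCm38.p6) were searched on both strands for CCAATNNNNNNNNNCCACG and for TGACGTGG. The first was found in 39 of 32851 windows (0.119%), in 5 of the 15 ER folding genes with a window and in 2 of 13 plasma cell genes, and in 0 of 11 germinal centre, 11 B cell identity and 7 MHC class II genes. The second was found in 222 windows (0.676%), in 0 of the 15 ER folding genes, in 1 of 13 plasma cell and 1 of 11 B cell identity genes, and in 0 of the germinal centre and MHC class II genes. The sites found in the ER folding and plasma cell genes are shown, on the strand of the gene from 5′ to 3′, with the motif or its reverse complement in capitals, at chr2:34772020-34772049 (plus strand) for Hspa5, chr10:86705632-86705661 and chr10:86705527-86705556 (minus strand) for Hsp90b1, chr12:17266486-17266515 (plus strand) for Pdia6, chr8:84847069-84847098 (minus strand) for Calr, chr11:50325794-50325823 (minus strand) for Canx, chr10:75893237-75893266 (plus strand) for Derl3, chr15:88819515-88819544 (plus strand) for Creld2 and chr13:38528034-38528063 (minus strand) for Txndc5.
Hspa5: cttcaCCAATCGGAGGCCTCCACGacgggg
Hsp90b1, first: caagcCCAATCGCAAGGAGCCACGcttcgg
Hsp90b1, second: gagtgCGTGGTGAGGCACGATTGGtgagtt
Pdia6: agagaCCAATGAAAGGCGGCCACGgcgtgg
Calr: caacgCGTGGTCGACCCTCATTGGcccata
Canx: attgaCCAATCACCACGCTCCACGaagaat
Derl3: tctacCGTGGGACTTCCCCATTGGctagcc
Creld2: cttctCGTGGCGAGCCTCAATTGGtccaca
Txndc5: ggcctcgccgcTGACGTGGcgctagccgcc
Canx carries the same element as Hspa5 and had a ratio of 0.18 where Hspa5 had 2.18, Pdia6 2.32 and Calr 1.41. A match describes the letters only and is no sign of binding in these cells.

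Other genes stood out in the Jchain-high cells by the fixed rule. Slpi (chr2:164354070-164389095, minus strand) had a median of 165 UMIs, a highest value of 1196 and at least 1 UMI in 89.6% of the cells, at 21404 against 162 CPM (log2 ratio 7.05, interval 6.90 to 7.20). Without the comparator cell with most Slpi UMIs the ratio was 7.94, beyond that interval. Of the 367 comparator UMIs, 29 were in the IgD+CD23+ cells below all 4 limits. In the 962 cells it was at 8.19 CPM, with no more than 1 UMI in any cell. Prlr, the prolactin receptor, was at 36.1 CPM and at 0 in the IgD+CD23+ cells, at least 27.3-fold higher against a floor of 3 UMIs over that group, and it had a UMI in 29.9% of the cells. Hid1, of secretory granule formation, was at 32.9 CPM and at least 24.8-fold higher by the same floor. Pon3 was at 113 against 1.32 CPM (6.20, 4.83 to 8.72) and Prg2 at 88.7 against 1.32 CPM (5.85, 4.47 to 8.38), both from 3 UMIs in the comparator. Those of Prg2 were all in 1 cell. Pgam2 had 14 of its 23 UMIs in 1 cell. On the lower side, Zfp318, whose protein is needed to express IgD, was at 0 against 203 CPM, at least 61.8-fold lower. Since the comparator was chosen for Ighd UMIs, this contrast is in part set by the rule. Serpinb1a (at least 38.1-fold), Fam43a (22.8), Tmem108 (20.9) and Gimap3 (18.4) were at 0 as well.

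The B cell programme was low in the Jchain-high cells. All 10 MHC class II genes were at least 2-fold lower, with a median of −2.69, and they stayed so over non-immunoglobulin CPM. H2-Aa was at 601 against 4921 CPM, Cd74, the invariant chain, at 3427 against 15440 CPM, and their regulator Ciita at 14.2 against 79.3 CPM. In the B cell identity list 13 of 16 genes were lower and 1, Cd24a, was higher at 389 against 137 CPM. Pax5, the factor that holds B cell identity, was at 17.5 against 263 CPM (−3.86, −4.72 to −3.19), Ebf1 at 106 against 1202 CPM and Cd22 at 8.76 against 147 CPM. The coactivator Pou2af1 was at 215 against 161 CPM. All 10 counted naive follicular genes were lower (median −3.93), and 10 of 13 counted homing genes, among them Ccr7 at 36.1 against 646 CPM, S1pr1 with a log2 ratio of −4.17 and Cxcr5, which draws B cells to follicles, at 5.48 against 78.0 CPM. Cxcr3, a receptor for inflammatory chemokines, was the homing gene that was higher, at 29.6 against 3.53 CPM, with a UMI in 26.0% of the cells against 0.539%.

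**Figure D4:**
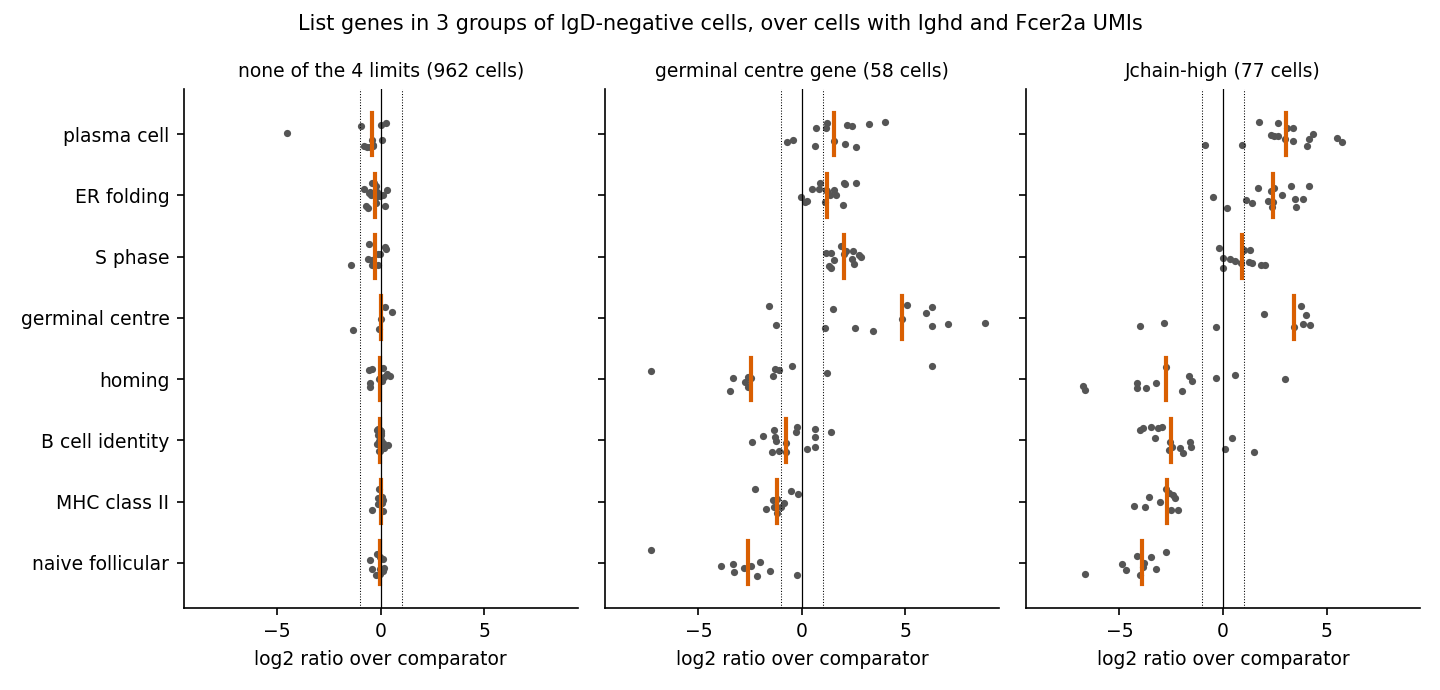
Log2 ratios (x axis) of the genes of 8 lists (y axis) over the 927 IgD+CD23+ cells, in the 962 cells below all 4 limits (left), the 58 germinal centre gene cells with no more than 6000 genes (middle) and the 77 Jchain-high cells (right). Each point is a gene with enough counts, shifted at random in height, orange bars are list medians and dotted lines mark 2-fold. In the left panel most points lie within 2-fold, and the plasma cell gene near −4.5 is Jchain, which 4 IgD+CD23+ cells hold at high counts. In the right panel 15 of 16 genes of the plasma cell list and of the ER folding list lie above 0, and the MHC class II and naive follicular genes lie below it.

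Within the 77 Jchain-high cells, the 29 cycling cells had higher levels of most counted B cell identity genes than the 48 that were not cycling. Of 3657 genes, 41.6% were at least 2-fold higher in the cycling cells and 2.87% lower, with a median log2 ratio of 0.82. Of the genes past 2-fold 93.5% were higher on this scale, and 63.9% over non-immunoglobulin CPM, where the median was 0.16. Immunoglobulin genes took 16.5% of the UMIs of the cycling and 47.8% of those of the non-cycling cells, and median depths were 14497 and 10128.5 UMIs. In the B cell identity list 8 of 11 counted genes were higher in the cycling cells, and 6 on the second scale. Ebf1 was at 207 against 18.4 CPM (3.42, 2.50 to 4.67), Ms4a1 at 341 against 73.7 CPM and Pax5 at 37.7 CPM against 0. All 11 counted S phase genes were higher on both scales, such as Rrm2, a subunit of ribonucleotide reductase, at 193 against 4.10 CPM. Of secretory genes, Xbp1 was at 836 against 1022 CPM, Hspa5 at 2669 against 3158 CPM, Derl3 at 280 against 416 CPM and Sdc1 at 77.7 against 135 CPM. Slpi was at 13128 against 28603 CPM. The summed ER folding list was at 24722 against 25832 CPM and the plasma cell list at 12938 against 26200 CPM, or 6153 against 8388 CPM without Jchain. No gene of these lists was at least 2-fold higher on either scale, and 1 of 16 in each was lower on the first. Over non-immunoglobulin CPM, where 16.9% of all counted genes were higher and 9.53% lower, 10 of 16 plasma cell genes (median −1.08) and 3 of 16 ER folding genes (median −0.56) were lower. Igha was at 2.35 CPM in the cycling and 6223 CPM in the non-cycling cells, from 3039 UMIs in 7 cells, 1829 of them in 1.

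In the 58 germinal centre gene cells with no more than 6000 genes, 13.2% of 5769 genes were at least 2-fold higher and 15.4% lower than in the IgD+CD23+ cells, with a median of −0.04. For all 60 cells the shares were 17.7% and 13.9% of 6042 genes. Over non-immunoglobulin CPM the balance of the 58 cells turned, to 14.7% higher and 14.1% lower with a median of 0.03. Rgs13, a regulator of chemokine signalling, was at 223 against 2.64 CPM, the transcription factor Mef2b at 152 against 2.20 CPM, and S1pr2, the receptor that holds B cells in germinal centres, at 84.3 against 0.881 CPM. These genes set the group. Of germinal centre genes outside the limit, Basp1 was at 927 against 27.3 CPM (5.07, 4.70 to 5.49) and found in 91.4% of the cells, the death receptor Fas at 73.7 against 6.61 CPM and Eaf2 at 183 against 30.9 CPM. Lmo2 was lower at 25.3 against 78.4 CPM and so was Il21r at 50.6 against 122 CPM. The same split, 3 higher and 2 lower of 5 counted genes outside the limit, was found in the Jchain-high, class-switched and cycling cells. Of the whole germinal centre list 6 of 9 counted genes were higher in the Jchain-high cells, at a sum of 1017 against 339 CPM. By the fixed rule Tox2 was named at 42.1 CPM against 0 (at least 31.9-fold higher), and Nt5e, the ectonucleotidase CD73, at 232 against 6.61 CPM with a UMI in 67.2% of cells.

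Genes of DNA synthesis were high in these cells and those of migration mostly low. All 13 counted S phase genes were at least 2-fold higher (median 2.02), with the helicase subunit Mcm5 at 126 against 17.6 CPM and Tyms, thymidylate synthase, at 94.8 against 17.2 CPM. Of the 13 counted homing genes 10 were lower and 2 were higher, among them S1pr2, which helps set the group. Ccr7 was at 63.2 against 646 CPM, Gpr183 at 16.9 against 107 CPM and Klf2 at 105 against 583 CPM. Cxcr4, which places cells in the dark zone, was at 141 against 201 CPM. MHC class II genes were lower in 7 of 10 (median −1.20), with H2-Aa at 1911 against 4921 CPM and Ciita at 69.5 against 79.3 CPM. Of B cell identity genes 7 of 16 were lower and Cd24a was higher, at 360 against 137 CPM, while Ms4a1 was at 910 against 766 CPM. Cd38, which mouse germinal centre B cells are known to lack, was at 0 against 41.9 CPM, at least 6.62-fold lower.

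In the 58 cells 9 of 13 counted plasma cell genes were higher, and 16 of the cells were also Jchain-high. In the 42 of them with fewer than 10 Jchain UMIs, a split chosen after the data were seen, 15.3% of 5815 genes were at least 2-fold higher and 14.3% lower. There 5 of 12 counted plasma cell genes, Slamf7, Derl3, Edem1, Xbp1 and Jchain, were higher (list median 0.18) and 1 of 16 ER folding genes, and all 12 counted S phase genes were higher. Of the 5 counted germinal centre genes outside the limit, Basp1 at 1130 CPM, Fas at 88.6 CPM and Eaf2 at 144 CPM were higher, and Lmo2 and Il21r were lower. Xbp1 was at 118 CPM and Nt5e at 277 CPM, and with the 2 deeper cells included they were at 83.5 and 179 CPM. The endothelial markers were at 126 CPM in the 42 cells, 27 of 34 UMIs in 1 cell, and at 322 CPM with those 2 cells. Immunoglobulin genes made up 2.32% of their UMIs, against 1.88% in the IgD+CD23+ cells and 33.2% in the Jchain-high cells, with a median of 36.5 Igkc UMIs and 4 switched heavy chain UMIs per cell.

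**Figure D5:**
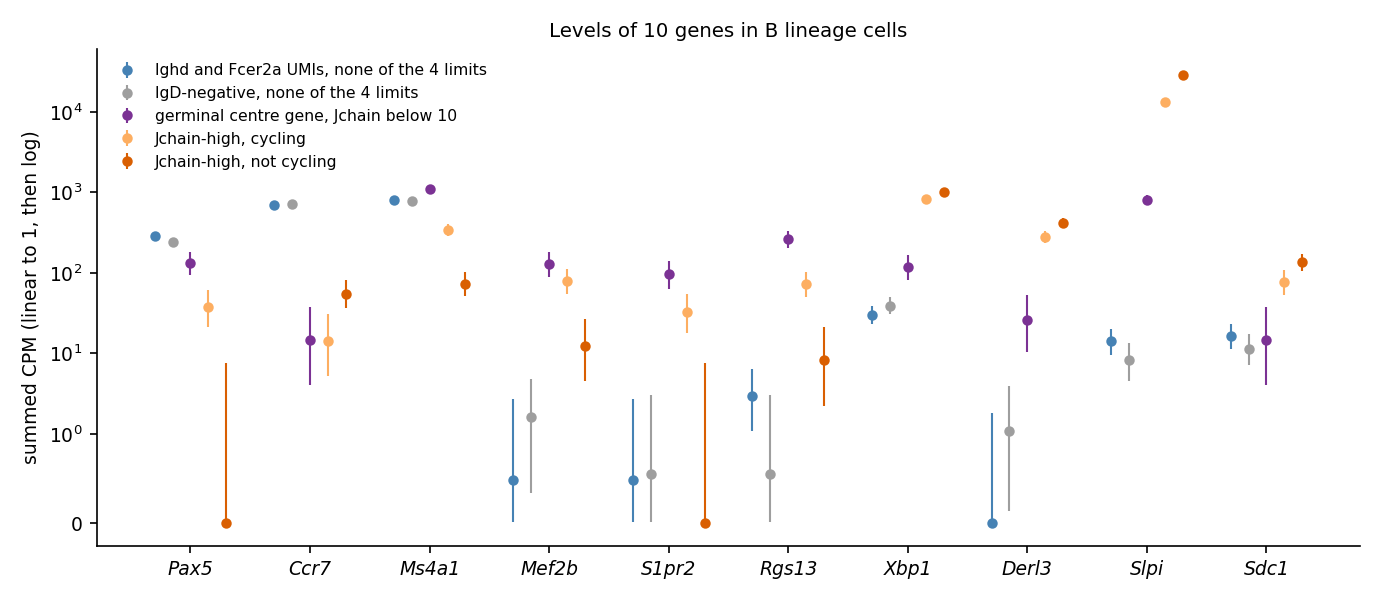
Levels of 10 genes (x axis) in 5 groups of B lineage cells, as CPM of summed UMIs (y axis, linear up to 1 and logarithmic above), the germinal centre gene cells being the 42 with fewer than 10 Jchain UMIs and no more than 6000 genes. Points are levels and lines 95% exact Poisson intervals, which cover counting error only. Pax5, Ccr7 and Ms4a1 are lower in both Jchain-high groups than in the cells below the 4 limits, S1pr2 and Rgs13 are highest in germinal centre gene cells, Mef2b has overlapping intervals in these and in cycling Jchain-high cells, and Xbp1, Derl3, Slpi and Sdc1 are highest in Jchain-high cells.

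The 58 cycling cells with no more than 6000 genes overlapped with both groups. Of 5797 genes 16.3% were at least 2-fold higher than in the IgD+CD23+ cells and 20.2% lower, and for all 63 cells 22.5% of 6217 genes were higher and 17.8% lower. Over non-immunoglobulin CPM the balance of the 58 cells turned, to 18.7% higher and 17.1% lower. All 13 counted S phase genes were higher (median 2.09), as were 12 of 14 plasma cell, 13 of 16 ER folding and 9 of 12 germinal centre genes, and all 10 naive follicular genes were lower. Besides genes named above, H1f10, a linker histone, was at 64.2 against 0.881 CPM, Sapcd2 at 40.5 against 0.881 CPM and the cell cycle inhibitor gene Cdkn2a at 26.5 against 0.441 CPM. Il10 had 26 of its 30 UMIs in 1 cell. With the 5 deepest cells included, the chemokine genes Ccl2 and Cxcl10 had log2 ratios of 7.18 and 5.15, against 2.28 and 1.34 without them. The class-switched cells, of which 69.9% were Jchain-high, had 9.78% of 5564 genes at least 2-fold higher and 33% lower, and 22.8% of the genes past 2-fold were higher, or 46.3% over non-immunoglobulin CPM. Their plasma cell list had 13 of 15 genes higher.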

How the data were processed

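Values were UMI counts from 10x Genomics 3′ libraries, deposited as whole numbers for 22620 genes with no scaling. Per the file headers the authors made them with Cell Ranger 5.0.0, while the submitters' processing notes give 2.1.1 and the study's reporting summary a later one than both. Reads were aligned to GRCm38, per the study methods. The study methods describe a filter on rarely detected genes and removal of doublets with DoubletFinder as steps of its own analysis. The deposited counts still hold genes with 0 UMIs and cells beyond its limits, and whether doublets were removed before deposit is not given in the sources used here. No doublets were removed in the results above. Cells were grouped by the stated limits, UMIs were summed per group and scaled to CPM, and log2 ratios used 0.5 added to both counts, with exact 95% conditional intervals. With 1 library per group there was no test. Shares at equal depth are expected values or means over 20 draws (5 for T cells) of 1000 UMIs per cell. Members, limits and lists were chosen with earlier results of these data known.

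Besides the lists, named genes were the 12 highest and 12 lowest ratios over all IgD-negative cells, and for each group the 10 highest and 5 lowest, among genes seen in 5% or more of the cells of the higher group, without rule genes, antibody segments, mitochondrial and ribosomal genes and unnamed transcripts. Not every gene named for a group is printed, and results for some genes are not reported here. Alternatives covered depth, gene and mitochondrial limits, Cd79 and group limits, a Scrublet score (scanpy 1.11.5), low-count filters and scaling. Intervals and thinning were checked on simulated data. The other packages were matplotlib 3.10.9, pandas 2.3.3, scipy 1.17.1 and numpy 2.4.6, under Python 3.11.15.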

Additional observations from a re-analysis of the deposited data

How the results depend on the processing

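No paired analysis was possible because each tissue has 1 library, and no replicate could be left out. None of the 90 named log2 ratios past 2-fold reversed with no more than 6000 genes, with the mean of single-cell CPM or without the cell with most UMIs of the gene, nor did the 79 outside immunoglobulin genes over non-immunoglobulin CPM. The other alternatives were not run on them. Among genes past 2-fold the balance turned from higher to lower in the cycling and the germinal centre gene cells with no more than 6000 genes. It also turned when only the IgD-negative and IgD+CD23+ cells with at least 2000 UMIs were compared. The B-1 and marginal zone median turned with the comparator. Non-immunoglobulin CPM turned the balance back in both groups of 58 cells (44.7% to 52.3% and 46.1% to 51.1% of genes past 2-fold higher) and turned it in the 140 cells past a limit (39.5% to 55.8%). The share of IgD-negative cells among lymph node cells was 10.6% with no more than 6000 genes per cell, 7.05% with at least 6 UMIs of Cd79a and Cd79b, and 5.22% among cells with at least 2000 UMIs. With the limit of 6 UMIs, 7.67% of the IgD-negative cells were cycling, 11.9% class-switched, 8.68% Jchain-high and 7.17% had germinal centre genes. With at least 2000 UMIs these shares were 15.7%, 25.9%, 19.3% and 14.7%. Thinned to 1000 UMIs they were 2.03%, 6.92%, 4.16% and 1.23%. A limit of 10 switched UMIs gave 7.35% class-switched, 50 Jchain UMIs gave 5.44% Jchain-high, and 4 germinal centre UMIs gave 3.90%. The 254 genes at least 2-fold higher became 431 with at least 2000 UMIs per cell, 47 with the mean of single-cell CPM and 1751 without the low-count filter. The 62 lower genes became 120 with 6 UMIs of Cd79a and Cd79b, 435 with at least 2000 UMIs, 24 with the mean of single-cell CPM and 1110 without the filter. Without the comparator cells past a limit, an alternative chosen after seeing the data, they were 399 and 106. The other alternatives, among them the removal of cells with high doublet scores, moved these values by less than their intervals or 1.5 times. Leaving out the cell with most UMIs of a gene, from both compared groups at once, kept 88 of 90 named genes at or past 2-fold. The mean of single-cell CPM kept 79 of 90, with 29 of 99 named ratios moved beyond their intervals. For depth, 1 UMI of Ighd or Fcer2a decides membership.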

Other observations

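Light chains and variable segments add to the description of the antibody-producing cells. More lambda than kappa light chain UMIs were counted in 65 of 1102 IgD-negative cells (5.90%), in 55 of 927 IgD+CD23+ cells (5.93%) and in 4 of 77 Jchain-high cells (5.19%, 1.43% to 12.8%). Of the 77 Jchain-high cells, 36 had at least 10 UMIs of heavy chain V segments, with 20 different leading segments. In 34 of these 36 the leading segment held at least 90% of the V UMIs, and Ighv1-82 and Ighv9-3 led in 5 cells each. For light chains 55 cells had at least 10 V UMIs and 27 leading segments, but the leading one held a median of 69.2% and reached 90% in 4 cells. Iglv1 led in 14 of the 55 cells, although 4 Jchain-high cells had more lambda than kappa UMIs. Among 31 cells with both chains there were 26 pairs of leading segments, of which 4 were found in more than 1 cell and covered 9 cells. Ighv9-3 with Iglv1 was found in 3 cells. Libraries of 3′ ends rarely reach V segments, and none of the 962 cells below all 4 limits had 10 such UMIs, so these pairs describe deeply counted cells only.

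Ccr10, the receptor for a mucosal chemokine, was at 14.2 CPM in the Jchain-high cells, from 13 UMIs in 6 cells, and at 0 in the IgD+CD23+ cells. A Scrublet doublet score above the library's 94th percentile was found in 17 of 1102 IgD-negative cells (1.54%) and 19 of 927 IgD+CD23+ cells (2.05%). All 17 were among the cells below the 4 limits, and none was cycling, class-switched, Jchain-high or a germinal centre gene cell. Of the 63 cycling cells, 7 held 3 or more of the endothelial markers and 4 held 3 or more of the dendritic cell markers. The score set none of these apart, so it does not show that the groups are free of mixed cells.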
